A study of Macaca mulatta with 21 samples.

Results

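CRES-3, a rhesus macaque embryonic stem cell line derived from a cloned blastocyst, was compared with ORMES23, an embryonic stem cell line derived from a blastocyst fertilized in vitro. The comparison used the 3 arrays of each line (A, B and C), 6 of the 21 arrays of the series, and every probe set with a single gene symbol that read log2 5 or more on at least 3 of these 6 arrays. Of 24969 probe sets with a single symbol, 16822 met that level and 8147 did not. They stood for 10389 of 14133 named genes, and 4091 of these genes had more than 1 such probe set. Some genes met the level in a single line: 63 probe sets reached it on CRES-3 arrays alone and 76 on ORMES23 arrays alone.

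ORMES23 is labelled male. CRES-3 is labelled female and was made by somatic cell nuclear transfer. Both lines were grown on mitotically inactivated mouse embryonic fibroblasts in medium with serum, colonies of undifferentiated appearance were picked by hand, and their total RNA was labelled for Affymetrix rhesus expression arrays. The other arrays hold the cloned line CRES-1 (male), the induced pluripotent lines RiPS1 (male, fetal fibroblasts), RiPS2 (female, skin of a monkey 10 years old) and RiPS3 (female, from a monkey 8 years old), all reprogrammed by retroviruses carrying cMYC, Klf4, SOX2 and OCT4, and skin fibroblasts of a female aged 8 years. Each line is a single derivation, so every test speaks for these lines and not for cloned or fertilized embryos in general. Sex, derivation and individual genotype cannot be told apart between CRES-3 and ORMES23. A, B and C are called biological replicates in the labels, which do not say how far back their cultures were separate, so p-values measure the spread between these arrays.

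In nuclear transfer, the nucleus of a body cell is placed in an egg that has lost its own, and factors of the egg return it to an embryonic state. Embryonic stem cells from such a blastocyst carry the nuclear genome of the donor animal and hold the undifferentiated state through the transcription factors POU5F1 (OCT4), SOX2 and NANOG. Imprinted genes, the inactive X chromosome and genes of the donor cell type are the usual places to look for incomplete resetting, and signals of the nodal, WNT and FGF pathways decide when such cells begin to form germ layers.

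By the mean of pluripotency markers, the labelled cell type held in both lines. The mean of the 10 pluripotency markers on the array ran from 9.76 to 10.11 in ORMES23 and from 9.65 to 9.94 in CRES-3, against 4.63 to 5.03 in the fibroblasts. All but NANOG averaged higher in both lines than in the fibroblasts. The NANOG probe set averaged 9.22 in ORMES23, 8.18 in CRES-3 and 9.96 in the fibroblasts. ZFP42 was low, at 5.92 in ORMES23 and 5.05 in CRES-3, and under log2 5 on ORMES23 B, CRES-3 B and CRES-3 C. Among 8 fibroblast or feeder markers on the array, LUM, PRRX1 and FAP were under log2 5 on all 6 arrays. COL1A1, COL1A2, COL3A1, THY1 and DCN were above it on all 6, with COL1A1 at 9.42 in ORMES23 and 9.41 in CRES-3. DCN averaged 6.82 in ORMES23 and 6.56 in CRES-3, against 6.44 in the fibroblasts. The mean over those 8 markers was 6.50 to 6.82 in ORMES23 and 6.40 to 6.68 in CRES-3, against 9.50 to 9.64 in the fibroblasts. Array A of ORMES23 stood apart from its line: its mean absolute deviation from the line mean was log2 0.216, against 0.112 to 0.141 for the other 5 arrays. It also had the highest mean of endoderm markers, as described with those genes. Results that rest on it are given with and without it.

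Against ORMES23, 113 genes were called in CRES-3, which was 1.09% of the genes tested. Of these, 57 rose (0.549%) and 56 fell (0.539%). Called means a limma p-value adjusted over all probe sets under 0.05 together with a difference of at least 2-fold. By probe set the share was 1.05%. Without the limit on fold, 1.68% of genes passed as higher and 1.01% as lower. The 3 arrays of a line all lay above or all lay below those of the other line in 29.8% of genes, 17.5% higher and 12.3% lower in CRES-3. They did so in 112 of the 113 called genes, the exception being UBD. Over all genes, 5706 differences were above 0 and 4683 below it. Counts within the gene lists below are to be read against these shares. At 1.09% called, a short list can hold no call or a single call without differing from all genes. In 23 called genes the dimmer line averaged under log2 5, near background. Folds of those genes are counted from log2 5 and written as at least that size. In a bulk sample, fewer cells of a type and less RNA per cell cannot be told apart.

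**Figure D1:**
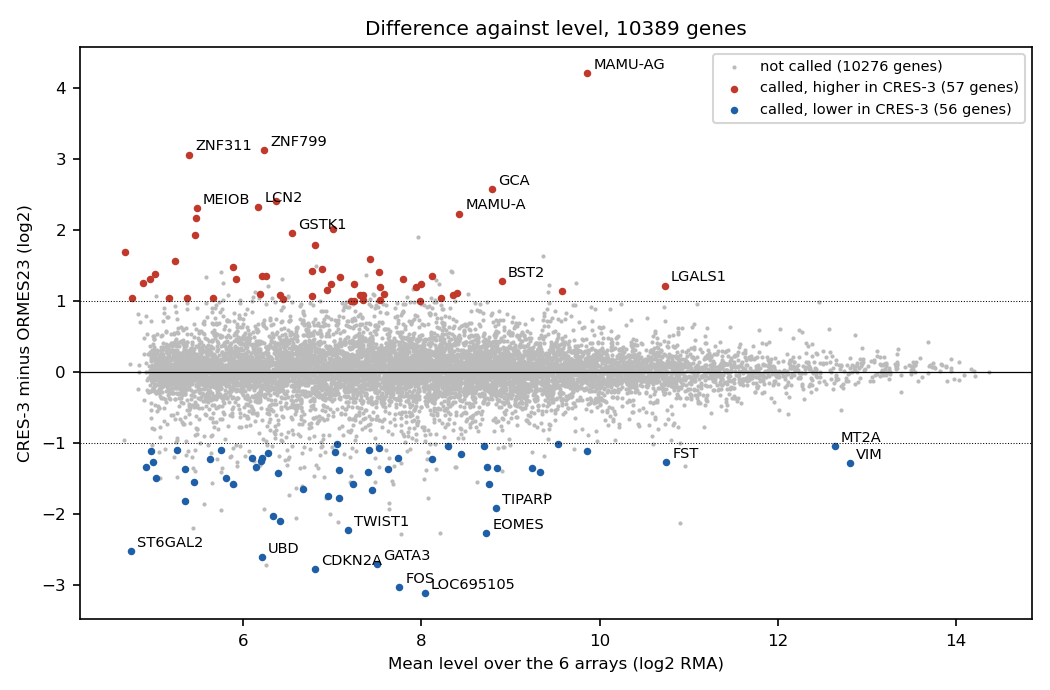
Difference between CRES-3 and ORMES23 (log2, vertical axis) against the mean level over the 6 arrays (log2 RMA, horizontal axis) for the 10389 genes; each point is a gene, red points are the 57 called higher in CRES-3, blue points the 56 called lower, and dotted lines mark a 2-fold difference. MAMU-AG stands highest at 4.21 and LOC695105 lowest at -3.11.

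With 3 arrays for each line, the number of calls moved with single arrays. Leaving out single arrays gave between 53 and 182 calls. Without array A of ORMES23 there were 182, of which 84 were among the 113. Without array B or C of ORMES23 there were 65 and 59, without CRES-3 A, B or C there were 56, 53 and 107. In all 6 of these fits 37 genes kept their call, 20 of them higher and 17 lower in CRES-3.

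The levels in the other 4 pluripotent lines show which of the compared lines stood out. Among the 57 genes that rose, CRES-3 alone lay outside the range of the 4 line means in 21, ORMES23 alone in 10, both in 16 and neither in 10. Among the 56 genes that fell, both lay outside it in 27, CRES-3 alone in 14, ORMES23 alone in 10 and neither in 5. Over all genes, these shares were 23.3% for CRES-3 alone, 16.5% for ORMES23 alone, 14.4% for both and 45.8% for neither. Called genes held departures of CRES-3, of ORMES23 and of both from the other lines. They were selected for a difference of at least 2-fold between the compared lines, which favours a line outside the range. The shares over all genes, which were not so selected, are therefore no like baseline.

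Read from the brightest probe set of each gene, the largest rise was in MAMU-AG, a non-classical major histocompatibility complex (MHC) class I gene known from the rhesus placenta. MAMU-AG read 7.92, 7.83 and 7.53 in ORMES23 and 12.01, 11.75 and 12.15 in CRES-3. The groups were far apart, with a log2 difference of 4.21 (SE 0.21), or 18.6-fold (adjusted p = 9.16e-10). Its level was as low in CRES-1 (7.67), intermediate in RiPS1 (9.50), and high in RiPS2 (11.01), RiPS3 (12.06) and the fibroblasts (12.25). A second, dimmer probe set of MAMU-AG differed by -0.36 and overlapped between the lines. The mean of both probe sets gave 1.92 (adjusted p = 3.82e-05), still called but below the differences of ZNF799 and ZNF311, which have 1 probe set each.

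MAMU-A, a classical class I gene that presents peptides to T cells, read 7.27, 7.36 and 7.29 in ORMES23 and 9.34, 9.60 and 9.69 in CRES-3 on its brightest probe set. That difference was 2.23 (SE 0.15, adjusted p = 1.17e-07). Its other probe set went the opposite way, from 8.10, 7.56 and 7.11 in ORMES23 to 2.73, 2.63 and 2.97 in CRES-3, a difference of -4.82 with CRES-3 near background. The mean of both probe sets gave -1.29 (adjusted p = 5.77e-05), so no direction is given for MAMU-A as a gene. MHC class I genes are near-identical copies, and a probe set here cannot be assigned to a single gene or allele with certainty.

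MAMU-E, a non-classical class I gene read by natural killer cell receptors, fell from 7.92, 8.09 and 8.17 to 6.86, 7.13 and 6.97, a difference of -1.07 (SE 0.22, adjusted p = 0.0123). Its other probe sets differed by 0.01 and -0.40 and overlapped. The call of MAMU-E was lost as a mean of its probe sets (-0.49) and without ORMES23 B, ORMES23 C or CRES-3 A, with differences from -1.14 to -1.01 over the arrays left out. B2M, the light chain that all class I molecules share, was not called, with 12.77, 12.93 and 12.95 in ORMES23 and 12.93, 12.85 and 12.88 in CRES-3 (difference 0.00, SE 0.10). The peptide transporter subunit TAP1 differed by 0.41 and MAMU-B by 0.22, neither called. Of 23 measured genes of class I and antigen processing, each on its brightest probe set, 2 rose and 1 fell, 10 lay wholly higher and 1 wholly lower in CRES-3, and the median difference was 0.17, against 0.03 over all genes. Over means of probe sets, 1 rose and 1 fell and the median was 0.11.

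Around the class I genes on chromosome 4, within 1 megabase of MAMU-A, MAMU-AG, MAMU-E or MAMU-F, 32 genes were measured. Of these 5 were called, against 1.09% of all genes. Besides class I genes, around which the region was drawn, the called genes were ZNF311 and UBD. ZNF311, a zinc finger gene, read 4.22, 3.61 and 3.76 in ORMES23 and 6.70, 6.96 and 7.12 in CRES-3. ORMES23 was under the level, so ZNF311 was at least 3.80-fold higher (difference 3.07, SE 0.29, adjusted p = 7.02e-06). The ring finger gene TRIM27 next to it differed by -0.20. It was among the 27 genes of the region that were not called, as was POU5F1 (0.59). On their brightest probe sets, the calls in MAMU-AG, MAMU-A and ZNF311 held whichever array was left out. The differences were 4.10 to 4.32, 2.16 to 2.33 and 2.94 to 3.25. Leaving out arrays does not settle the direction of MAMU-A, whose other probe set went the opposite way.

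**Figure D2:**
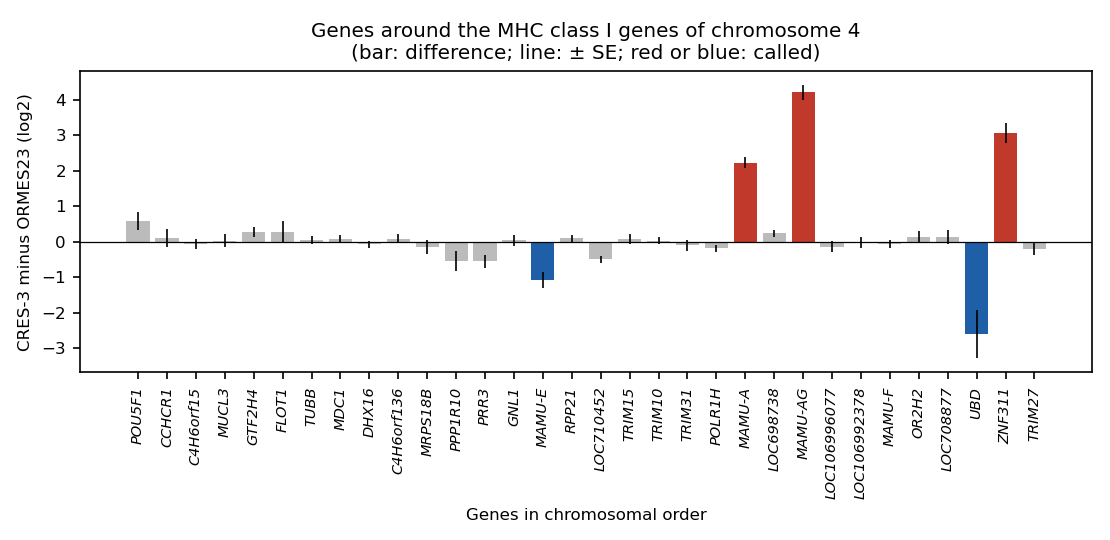
Difference between CRES-3 and ORMES23 (log2, vertical axis) for the 32 measured genes around the MHC class I genes of chromosome 4, in chromosomal order; bars are differences, lines are ± SE from the fit, red bars are called higher and blue bars called lower. MAMU-AG (4.21), ZNF311 (3.07) and MAMU-A (2.23) stand above 0, UBD (-2.61) and MAMU-E (-1.07) below it, and the 27 grey bars are not called. Each gene is read from its brightest probe set, and the other probe set of MAMU-A went the opposite way.

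Interferon-induced genes did not move together. BST2, the membrane tether that holds budding viruses, rose from 7.86, 8.50 and 8.41 to 10.28, 9.22 and 9.14, a difference of 1.29 (SE 0.31, adjusted p = 0.0320), with its second probe set at 1.59. BST2 lost its call in the fit on the 6 arrays alone, kept it only where CRES-3 C was left out and stood at 0.92 without CRES-3 A. UBD, a ubiquitin-like modifier, was at least 5.70-fold lower (difference -2.61, SE 0.68, adjusted p = 0.0479). ORMES23 was split for UBD: array A read 5.11, within the CRES-3 values of 5.15, 4.85 and 4.70, while B and C read 8.62 and 8.79. Without array A the difference in UBD was -3.81 and called, and leaving out any other array ended the call, at -1.97 without ORMES23 C. The call was also lost with no filter, the filter over 21 arrays, median centring and the 6 arrays alone (adjusted p 0.0512 to 0.153). MX1, an antiviral GTPase, read 8.33, 8.63 and 8.65 in ORMES23 and 7.68, 7.51 and 7.80 in CRES-3. Its difference of -0.87 passed the test (adjusted p = 0.0155) but not the fold limit. With single arrays left out, MX1 passed the test only without ORMES23 A or CRES-3 C. IFIT3 stood at 0.94, UBE2L6 at 1.00 and GBP2 at 0.64, not called. Of 22 measured members, 1 rose and 1 fell, 8 lay wholly higher and 5 wholly lower, with a median of 0.14.

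LCN2, which encodes the iron-siderophore carrier lipocalin 2, rose from 4.73, 5.33 and 4.95 to 6.97, 7.64 and 7.39. The difference was 2.33 (SE 0.44, adjusted p = 0.00780), or 5.04-fold, and CRES-3 was above all other 4 lines, whose means ran from 4.90 to 6.68. Without CRES-3 B it was 2.18 and no longer called. LCN2 was the only one of 13 measured NF-kB and acute phase genes to be called; RELB differed by 0.32 and NFKBIZ by 0.41.

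Several other genes of unlike function rose sharply. ZNF799, a zinc finger gene, read 5.89, 4.10 and 4.02 in ORMES23 and 7.79, 7.69 and 7.92 in CRES-3, at least 6.96-fold higher (difference 3.13, SE 0.45, adjusted p = 0.000807). GCA, which encodes the calcium-binding protein grancalcin, read 8.60, 7.15 and 6.76 in ORMES23 and 10.09, 9.96 and 10.19 in CRES-3, a difference of 2.58 (SE 0.35). In both genes ORMES23 A was the highest of its line and still below every CRES-3 array. MEIOB, needed for meiotic recombination, read 4.46, 4.23 and 4.28 against 6.82, 6.77 and 6.30, at least 3.09-fold higher (difference 2.31, SE 0.29, adjusted p = 0.000207).

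GSTK1, a glutathione transferase, read 6.20, 5.28 and 5.22 in ORMES23 and 7.53, 7.38 and 7.68 in CRES-3, a difference of 1.96 (SE 0.21, adjusted p = 2.46e-05). PEX7, the receptor that brings a class of enzymes into peroxisomes, rose by 1.45 (SE 0.23) on its brightest probe set and by 1.24 on its other one. SVOPL, a transporter-like gene, rose by at least 2.69-fold, SPATA6, a gene of the sperm tail, by 1.42 and NEURL3, which encodes a ubiquitin ligase, by 1.42. LOC712157, annotated as a transcribed pseudogene, rose by 2.41 (SE 0.37). ZNF799, GCA, MEIOB, GSTK1, PEX7, SVOPL, SPATA6, NEURL3 and LOC712157 kept their calls whichever array was left out, and PEX7 lost its call in the fit on the 6 arrays alone.

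The calls of TESMIN, G6PC2, SPAG4, MAP6D1, SH3YL1 and CRYGB were lost in some or all fits that left out an array. TESMIN, a metallothionein-like gene of the testis, was at least 2.93-fold higher (difference 2.17, SE 0.51) and G6PC2, a glucose-6-phosphatase of the pancreatic islet, at least 1.43-fold higher (difference 1.70, SE 0.41); both lost their call without any single array, with differences of 2.09 to 2.31 and 1.46 to 1.82. SPAG4, MAP6D1, SH3YL1 and CRYGB stood at 2.02, 1.80, 1.60 and 1.48. SPAG4 lost its call in the fit on the 6 arrays alone and, of single arrays left out, kept it only without ORMES23 A, where its difference was 2.61, and CRYGB in 3 of the 6 fits, losing it without ORMES23 C, CRES-3 A or CRES-3 B. MAP6D1 and SH3YL1 each kept it in 2 of the 6, losing it without ORMES23 B, ORMES23 C, CRES-3 A or CRES-3 B.

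**Figure D3:**
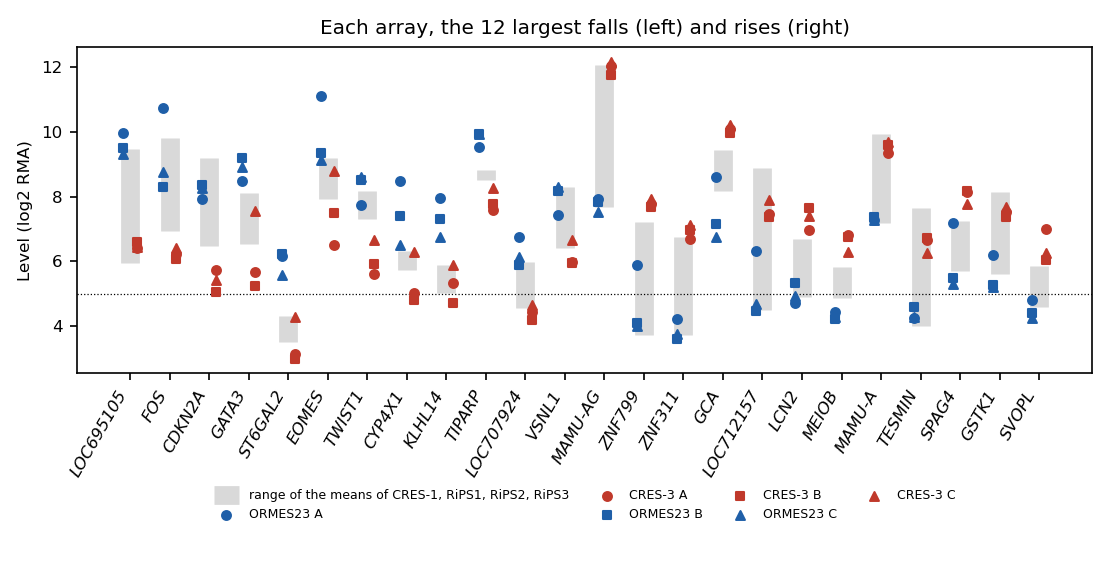
Level on each array (log2 RMA, vertical axis) for the 12 largest falls and the 12 largest rises among called genes with no overlap between the lines; blue symbols are ORMES23 and red symbols CRES-3, circles, squares and triangles are arrays A, B and C, grey bars span the means of CRES-1, RiPS1, RiPS2 and RiPS3, and the dotted line is log2 5. For MAMU-AG the CRES-3 arrays lie at 11.75 to 12.15 and the ORMES23 arrays at 7.53 to 7.92; FOS shows ORMES23 A at 10.72, above its line mates.

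The largest fall was in LOC695105, which is annotated as a pseudogene and whose probe sets may read related transcripts. LOC695105 read 9.95, 9.51 and 9.31 in ORMES23 and 6.41, 6.60 and 6.44 in CRES-3, a difference of -3.11 (SE 0.28, adjusted p = 5.48e-06). CRES-1 (9.46) was close to ORMES23, while RiPS1, RiPS2 and RiPS3 averaged 7.54, 5.97 and 7.08.

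CDKN2A, which encodes the cell cycle inhibitor p16 and the p53 activator ARF, read 7.92, 8.37 and 8.28 in ORMES23 and 5.75, 5.07 and 5.44 in CRES-3. It fell by 2.77 (SE 0.51, adjusted p = 0.00729), or 6.80-fold. CRES-3 lay below every other pluripotent line, whose means ran from 6.49 in RiPS3 to 9.19 in CRES-1, and below the fibroblasts (9.37). Without CRES-3 B the difference was -2.59 with an adjusted p of 0.0526. Of 11 measured cell cycle inhibitors, CDKN2A was the only one called; RB1 differed by 0.30 and CDKN2D by 0.16. None of 23 cell cycle genes was called, 7 lay wholly lower in CRES-3 and the median was -0.09. Cyclin D1 (CCND1) read 8.42, 9.78 and 9.99 against 7.88, 7.77 and 7.90, a difference of -1.54 (adjusted p = 0.125) that became -2.03 and called without ORMES23 A.

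ST6GAL2, a sialyltransferase gene, read 6.17, 6.24 and 5.59 in ORMES23 and fell under the level in CRES-3 (3.15, 3.01 and 4.28), at least 2.00-fold. ZNF662 fell by 1.74 (SE 0.18, adjusted p = 1.97e-05) and GSTO1, a glutathione transferase of another class than GSTK1, by 1.58 (SE 0.21). MTHFSD, a gene with a very small spread, read 5.78, 5.79 and 5.85 against 4.62, 4.72 and 4.76, at least 1.74-fold lower (difference -1.10, SE 0.11, adjusted p = 1.65e-05). LOC707924 fell by at least 2.38-fold. LOC695105, ST6GAL2, ZNF662, GSTO1, MTHFSD and LOC707924 kept their calls whichever array was left out; MTHFSD lost it as a mean of its probe sets.

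CMTR2, which methylates the cap of mRNA, fell by 1.57 on its brightest probe set, while its other one stood at 1.09 and overlapped, so its direction is uncertain. The other large falls were in genes of unlike function. The cytochrome P450 gene CYP4X1 fell by 2.10 (SE 0.46), KLHL14 by 2.03 (SE 0.51), the neuronal calcium sensor gene VSNL1 by 1.77 (SE 0.34), the cholecystokinin receptor gene CCKBR by 1.65 (SE 0.33) and the chromatin protein gene NUCKS1 by 1.65 (SE 0.37). CYP4X1 was highest in ORMES23 A (8.49, against 7.41 and 6.49) and its difference was -1.58 without that array. All 5 kept their calls without CRES-3 C and lost them without CRES-3 A or CRES-3 B. Without ORMES23 A the call held in VSNL1 and CCKBR, without ORMES23 B in VSNL1, and without ORMES23 C in CYP4X1, and it was lost in the others. The call of CYP4X1 was also lost on the 6 arrays alone, and that of KLHL14 without the fibroblasts, with no filter and with median centring. The other probe set of KLHL14 differed by -0.04 and overlapped, while the mean of both still gave a call at -1.03. ZNF641 and FAM222A fell by 1.58 and at least 1.69-fold. ZNF641 lost its call without ORMES23 B, ORMES23 C, CRES-3 A or CRES-3 B, and FAM222A without any single array.

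Immediate early and stress response genes, which are switched on within minutes of a growth signal or of handling, were mostly lower in CRES-3. Of 35 measured members, 2 fell, 0 rose, 14 lay wholly lower and 2 wholly higher, and 30 differences were below 0, with a median of -0.50. Without ORMES23 A the median was -0.61 and 1 fell. The median level of these genes was 7.75 on ORMES23 A, close to 7.60, 7.78 and 7.75 on the CRES-3 arrays, and 8.77 and 8.85 on ORMES23 B and C. FOS, a subunit of the transcription factor AP-1, read 10.72, 8.30 and 8.76 in ORMES23 and 6.23, 6.06 and 6.41 in CRES-3. FOS fell by 3.02 (SE 0.75, adjusted p = 0.0381), or 8.14-fold, with CRES-3 below all other 4 lines (6.93 to 9.79). The call of FOS was lost without any single array, with differences of -3.51 to -2.29 and adjusted p from 0.0531 to 0.139.

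TIPARP, an ADP-ribosyltransferase induced by the aryl hydrocarbon receptor, read 9.52, 9.94 and 9.93 in ORMES23 and 7.60, 7.78 and 8.27 in CRES-3, a difference of -1.91 (SE 0.36, adjusted p = 0.00778) that held whichever array was left out. The other measured targets or partners of that receptor, ALDH3A1 and ARNT, differed by -0.10 and 0.03. Among members not called, JUNB stood at -0.90, BTG2 at -0.81, IER2 at -0.83 and DUSP5 at -1.55. ORMES23 A was not uniformly high: it was the highest array for FOS, and the lowest of its line for DUSP5 and CSRNP1.

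The core factors POU5F1 and SOX2 did not pass the test. POU5F1 read 11.41, 12.21 and 12.19 in ORMES23 and 12.79, 12.46 and 12.33 in CRES-3 (difference 0.59, SE 0.26, adjusted p = 0.259). SOX2 differed by 0.18 (SE 0.19). LIN28B, which blocks let-7 processing, differed by 0.08 and the DNA methyltransferase DNMT3B by 0.23. Of the other factors used for reprogramming, KLF4 differed by -0.50 (SE 0.36) and MYC by -0.16. UTF1, a chromatin factor of undifferentiated cells, read 6.37, 6.57 and 6.75 against 6.99, 7.44 and 7.24. Its difference of 0.66 (adjusted p = 0.0166) passed the test and not the fold limit. UTF1 did not pass the test without ORMES23 A, ORMES23 B or CRES-3 B.

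The single probe set of NANOG read 9.38, 9.07 and 9.22 in ORMES23 and 8.22, 7.88 and 8.44 in CRES-3, a fall of 1.04 (SE 0.26, adjusted p = 0.0361). NANOG is silent in fibroblasts, yet this probe set averaged 9.96 there, so it is uncertain what it measures. Its call was lost in 5 of the 6 fits that left out an array, all but that without CRES-3 C, and it fell under the fold limit with array weights (-0.93). Of 25 measured pluripotency genes, NANOG alone was called, 6 lay wholly higher and 5 wholly lower, and the median was 0.08. TBX3, a factor of naive and of early mesendoderm cells, read 6.96, 6.92 and 6.29 against 4.24, 4.63 and 5.47 and was not called (-1.95, adjusted p = 0.123).

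Most genes that mark the first steps of differentiation had differences below 0. Among 16 mesoderm and primitive streak genes, 2 fell, 0 rose and 14 had differences below 0, with a median of -1.04. Without ORMES23 A, 4 fell and the median was -1.08. In CRES-3, 7 members lay wholly lower. TWIST1, a mesenchymal transcription factor, read 7.75, 8.52 and 8.59 in ORMES23 and 5.60, 5.92 and 6.67 in CRES-3, a fall of 2.22 (SE 0.44, adjusted p = 0.0107). It lost its call without ORMES23 B, ORMES23 C, CRES-3 A or CRES-3 B, at -2.11, -2.07, -1.99 and -2.15.

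EOMES, a T-box factor of the primitive streak and endoderm, read 11.11, 9.34 and 9.12 in ORMES23 and 6.50, 7.49 and 8.78 in CRES-3. It fell by 2.26 (SE 0.59, adjusted p = 0.0479), and its other probe set by 1.63. Both lines spread widely for EOMES, with ORMES23 A and CRES-3 C as their highest arrays. Its call held without CRES-3 C, where the difference was -2.86, and was lost without any other array, with -1.64 lacking ORMES23 A. It was also lost without the fibroblasts, on the 6 arrays alone, with no filter, with the filter over 21 arrays and with median centring (adjusted p 0.0512 to 0.113). TBXT (brachyury), the streak factor, read 7.29, 7.76 and 7.28 against 5.82, 6.31 and 6.71, with no overlap and no call (-1.17, adjusted p = 0.110). MSX2, a target of BMP signals, was split in ORMES23 (6.87, 9.40 and 9.40, against 6.25, 6.61 and 7.29). Its difference of -1.84 was not called, and without ORMES23 A it was -2.69 and called.

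Endoderm genes showed array A of ORMES23 at its most different. SOX17, which specifies endoderm, read 10.55, 8.02 and 7.22 in ORMES23 and 5.63, 6.10 and 8.27 in CRES-3. GATA6 read 11.25, 8.17 and 6.90 against 6.18, 6.95 and 8.71, and the nodal antagonist CER1 11.74, 7.59 and 7.19 against 7.27, 8.10 and 7.97. Array C was the highest of CRES-3 for SOX17 and GATA6, as it was for EOMES. The chemokine receptor CXCR4 (11.20, 7.91 and 7.79 in ORMES23) and the organizer factor GSC (10.94, 6.85 and 6.52) followed the same order in ORMES23. None of 16 endoderm genes was called, and the median was -0.89, or -0.22 without ORMES23 A. The mean of the 5 endoderm markers was 9.22, 7.37 and 6.81 in ORMES23 and 6.06, 6.54 and 7.50 in CRES-3, so the lines overlapped. Among these markers, ORMES23 A was the highest array for SOX17, FOXA2, GATA4 and GATA6 and the lowest of its line for AFP (7.65, against 7.85 and 7.94). The differences in SOX17, GATA6, CER1, CXCR4 and GSC moved with these single arrays, and the part of differentiating cells in them was not tested.

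**Figure D4:**
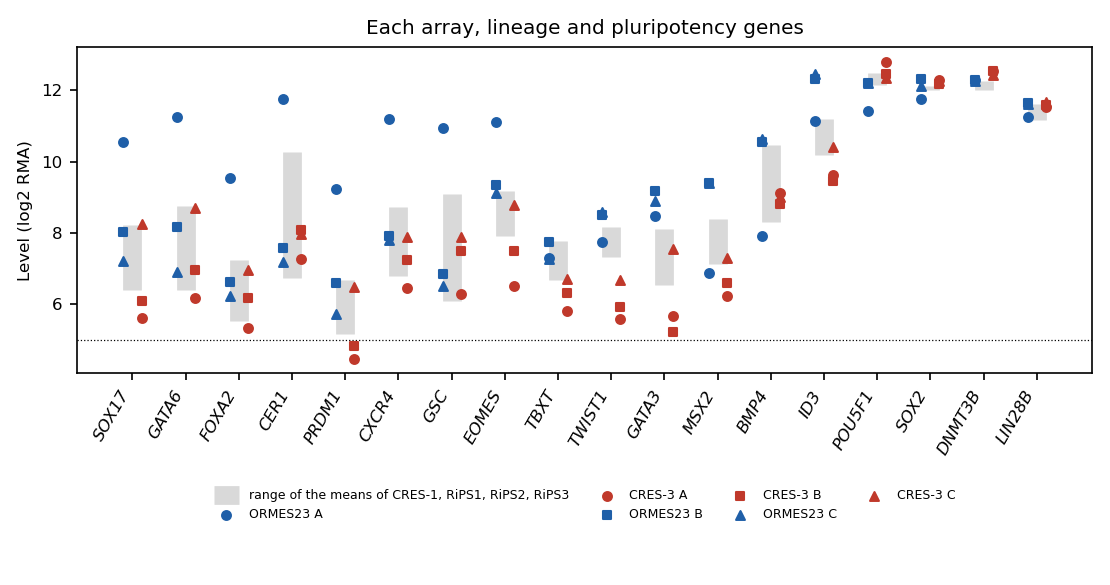
Level on each array (log2 RMA, vertical axis) for endoderm, mesoderm, trophoblast and pluripotency genes; blue symbols are ORMES23, red symbols CRES-3, shapes are arrays A, B and C, grey bars span the means of CRES-1, RiPS1, RiPS2 and RiPS3, and the dotted line is log2 5. ORMES23 A (blue circle) stands highest from SOX17 to EOMES and lowest of its line for MSX2 and BMP4, while SOX2, DNMT3B and LIN28B hold close together in both lines.

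GATA3, a factor of trophoblast and amnion, read 8.48, 9.18 and 8.90 in ORMES23 and 5.68, 5.23 and 7.54 in CRES-3. It fell by 2.70 (SE 0.69, adjusted p = 0.0435), or 6.51-fold, with its second probe set at -1.86 (adjusted p = 0.0676). CRES-3 C was again the highest of its line, and the call was lost unless CRES-3 C was left out (-3.40); without CRES-3 B it was -2.24. It was also lost without the fibroblasts, with no filter and with median centring (adjusted p 0.0510 to 0.0560). GATA3 was the only one of 12 measured trophoblast and amnion genes to be called; TFAP2A differed by -0.77, GATA2 by -0.62 and VTCN1 by 0.72, and the median was -0.11, or -0.32 without ORMES23 A. The trophoblast factor gene ELF5 was under log2 5 on all 6 arrays. The keratin gene KRT8 (-0.72) and TFAP2A were called without ORMES23 A, both at -1.11.

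None of 12 neural ectoderm genes was called, with a median of -0.19, or -0.29 without ORMES23 A. SOX3 read 9.09, 10.11 and 10.20 in ORMES23 and 8.76, 8.35 and 8.94 in CRES-3 (-1.12, adjusted p = 0.0739), and was called without ORMES23 A at -1.47. PAX6, an eye and brain factor that did not belong to the tested genes because only 2 arrays reached the level, read 3.18, 6.66 and 6.94 in ORMES23 and 3.70, 3.84 and 3.92 in CRES-3. ORMES23 A was thus the lowest of its line for PAX6, MSX2 and SOX3 and the highest for SOX17, GATA6 and CER1.

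Genes of the TGF-beta, nodal and BMP pathways followed the same direction. FST (follistatin), which binds and blocks activin, read 11.09, 11.66 and 11.39 in ORMES23 and 10.01, 9.84 and 10.48 in CRES-3, a fall of 1.27 (SE 0.28, adjusted p = 0.0199). All 3 probe sets of FST were called, at -1.27, -1.18 and -1.43. The call on the brightest was lost without ORMES23 B, ORMES23 C, CRES-3 A or CRES-3 B, with differences of -1.13 to -1.26. Among receptors, ACVR2A, which binds activin, stood at -0.76 (SE 0.18, adjusted p = 0.0268), under the fold limit. ACVR2A did not pass the test when any single array was left out (adjusted p 0.0507 to 0.12).

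Among targets of BMP signals, ID3 read 11.13, 12.30 and 12.44 in ORMES23 and 9.63, 9.46 and 10.42 in CRES-3. Its difference of -2.12 (SE 0.56) missed the threshold (adjusted p = 0.0531) and passed without ORMES23 A, at -2.53. As a mean of its probe sets, ID3 stood at -0.81 (adjusted p = 0.206). The ligand gene BMP2 read 9.49, 7.80 and 7.07 against 5.05, 5.74 and 7.25, and BMP4 7.91, 10.56 and 10.62 against 9.13, 8.82 and 9.01; ORMES23 A was highest for BMP2 and lowest for BMP4. Of 31 measured members, 1 fell, 10 lay wholly lower, 1 wholly higher and 26 had differences below 0. The median was -0.42, or -0.20 without ORMES23 A, where 4 fell.

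No WNT gene was called among 31, while 27 had differences below 0, 10 lay wholly lower and 1 wholly higher, and the median was -0.32 (-0.37 without ORMES23 A, where 2 fell). APCDD1, a WNT inhibitor of the cell membrane, read 7.71, 7.79 and 7.75 against 6.57, 6.89 and 6.59 (-1.07, adjusted p = 0.0616). AXIN2, a feedback target, read 7.91, 8.47 and 8.38 against 6.23, 6.70 and 7.20 (-1.55, adjusted p = 0.131). The ligand gene WNT2B stood at -1.27 and the antagonist gene DKK3 at -1.05; without ORMES23 A both were called, at -1.78 and -1.26. Among 18 genes of FGF and MAPK feedback none was called and the median was -0.06, with FGF9 at -0.99 (-1.38 and called without ORMES23 A) and the feedback inhibitor SPRY2 at 0.48.

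Mesenchymal genes were lower in CRES-3 more often than higher. Of 32 measured fibroblast and mesenchyme genes, 3 fell, 1 rose, 12 lay wholly lower and 3 wholly higher. Over all genes, 12.3% lay wholly lower and 17.5% wholly higher. The median was -0.36, or -0.71 without ORMES23 A. VIM, the intermediate filament vimentin, read 13.60, 13.27 and 13.46 in ORMES23 and 11.97, 12.23 and 12.30 in CRES-3. It fell by 1.28 (SE 0.23, adjusted p = 0.00637), and the call held whichever array was left out. Its other probe sets stood at -1.30, also called, and at -1.04, which missed the threshold. CRES-3 was below the other 4 lines for VIM (12.69 to 13.73). S100A6, which encodes a small calcium-binding protein, fell by 1.35 (SE 0.31), a call lost without ORMES23 B, ORMES23 C, CRES-3 A or CRES-3 B and as a mean of its probe sets. TWIST1 was the third to fall.

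LGALS1, which encodes galectin 1, went the other way and rose from 10.12, 9.78 and 10.45 to 11.20, 11.40 and 11.40, a difference of 1.22 (SE 0.21, adjusted p = 0.00423) that held whichever array was left out. Of the fibroblast or feeder markers above log2 5, the collagen genes COL1A1 (9.42 in ORMES23 and 9.41 in CRES-3) and COL3A1 (6.42 and 6.44) were close in level. COL1A2 averaged 9.64 and 9.05, THY1 9.41 and 9.12, and DCN 6.82 and 6.56. The arrays of both lines overlapped for all 5, and their part in the lower mesenchymal genes was not tested. ZEB1 (-1.36), MMP2 (-1.05) and CDH11 (-1.06) lay wholly lower and were not called.

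Epithelial adhesion genes did not shift as a group. CLDN7, a claudin of tight junctions, read 7.32, 7.44 and 7.38 in ORMES23 and 8.79, 8.82 and 8.25 in CRES-3, a rise of 1.24 (SE 0.21, adjusted p = 0.00333) that held whichever array was left out. PKP3, a desmosome gene, stood at 0.67 (adjusted p = 0.0196), under the fold limit. As a mean of its probe sets, PKP3 did not pass the test (0.27, adjusted p = 0.263). With single arrays left out, PKP3 passed only without ORMES23 A or CRES-3 C. Of 24 measured members, 1 rose and 0 fell, with a median of 0.05.

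**Figure D5:**
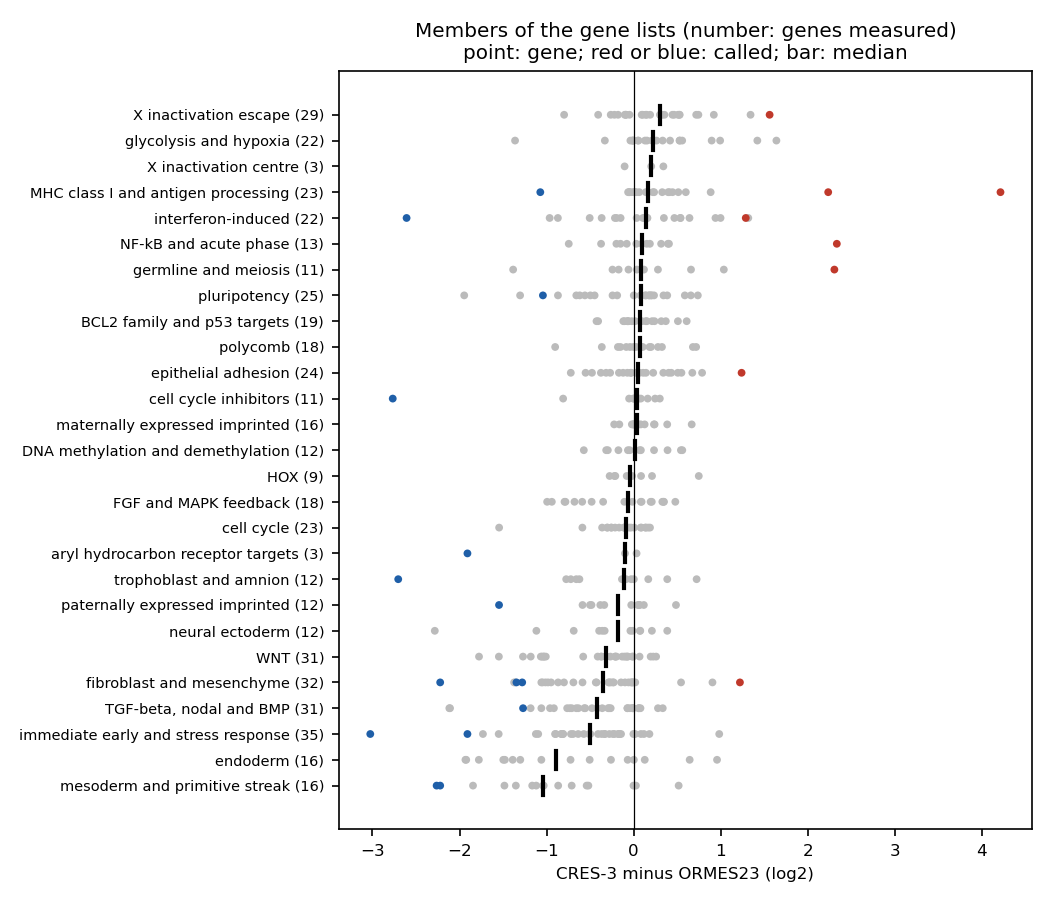
Difference between CRES-3 and ORMES23 (log2, horizontal axis) for the members of 27 gene lists with at least 3 measured genes, ordered by their median; points are genes, red and blue points are called higher and lower, black bars are medians and the numbers are genes measured. The medians run from -1.04 for mesoderm and primitive streak to 0.30 for genes that escape X inactivation.

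Imprinted genes, which are expressed from the maternal or the paternal copy alone, gave a single call. PLAGL1, a paternally expressed zinc finger gene, read 5.86, 6.37 and 6.42 in ORMES23 and 4.25, 4.40 and 5.36 in CRES-3, at least 2.32-fold lower (difference -1.55, SE 0.39, adjusted p = 0.0419). CRES-3 was below the other 4 lines (5.32 to 6.28). The call was lost without ORMES23 B, ORMES23 C, CRES-3 A or CRES-3 B, at -1.47, -1.44, -1.34 and -1.41. It was also lost with no filter, median centring and quantile normalization (adjusted p up to 0.0540). Of 12 paternally expressed genes 3 lay wholly lower, with a median of -0.18 (-0.04 over means of probe sets); MEST stood at -0.59, PEG3 at -0.38, DLK1 at -0.48 and SNRPN at 0.12. None of 16 maternally expressed genes was called and the median was 0.04. The potassium channel gene KCNQ1 stood at 0.67 (adjusted p = 0.0271), with 5.59, 5.94 and 6.14 against 6.69, 6.46 and 6.52. With single arrays left out, KCNQ1 passed the test only without ORMES23 C (adjusted p = 0.0331).

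No gene of DNA methylation (12 measured, median 0.01) or of the polycomb complexes (18 measured, median 0.07) was called. Lists this short can hold no call without differing from all genes, of which 1.09% were called. Among polycomb genes PHC2 stood at -0.90 (adjusted p = 0.0120) and CBX7 at 0.68 (adjusted p = 0.0322), both wholly apart between the lines and under the fold limit. With single arrays left out, CBX7 passed the test only without CRES-3 C, and PHC2 missed it without CRES-3 A or CRES-3 B. Over means of probe sets, PHC2 stood at -0.48 and CBX7 again at 0.68. TET1, which oxidizes methylated cytosine, differed by 0.56 and DNMT1 by 0.54. The 9 measured HOX genes had a median of -0.04 and none was called. Among 11 germline and meiosis genes MEIOB was the only one called; SOHLH2 stood at 1.04 and SYCE3 at 0.66.

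Glycolysis and hypoxia genes had a median of 0.22 over 22 members, with none called and 16 above 0. PFKL, the liver form of phosphofructokinase, read 7.89, 7.59 and 7.53 in ORMES23 and 8.98, 8.51 and 8.50 in CRES-3. Its difference of 0.99 (adjusted p = 0.00788) was just under the fold limit, and it was called without ORMES23 A, CRES-3 B or CRES-3 C. The lactate transporter gene SLC16A3 read 9.05, 6.90 and 6.93 against 9.39, 8.98 and 8.77, so ORMES23 A lay with CRES-3; without it the difference rose from 1.42 to 2.13 and was called. PFKP did the same, from 0.90 to 1.32. As means of probe sets with all arrays kept, SLC16A3 stood at 0.73 and PFKP at 0.90. Without ORMES23 A the median of the list was 0.38 and 3 of the 22 were called higher. The BCL2 family and p53 targets gave no call among 19, with BOK at 0.51 (adjusted p = 0.0194). As a mean of its probe sets, BOK stood at 0.34 (adjusted p = 0.132). With single arrays left out, BOK passed the test only without ORMES23 A or CRES-3 C.

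On the X chromosome, 394 genes were measured. Of these 2 rose and 2 fell, and the median was 0.01, against 0.03 over all genes. XG, a blood group gene at the border of the pseudoautosomal region, read 4.67, 4.56 and 4.13 in ORMES23 and 6.21, 6.08 and 5.75 in CRES-3, at least 2.02-fold higher (difference 1.56, SE 0.21, adjusted p = 0.000393). Its call held whichever array was left out, and its level was 4.54 in CRES-1 and 7.02 in RiPS1, both labelled male. TCEAL2 rose by 1.15 (SE 0.29), lost its call on the 6 arrays alone and, of single arrays left out, kept it only without ORMES23 A. COL4A6, a basement membrane collagen gene, fell by 1.04 (SE 0.19) and TMEM47 by 1.00 (SE 0.20). COL4A6 fell short of the fold limit without CRES-3 A (-0.95), both did so as means of their probe sets (-0.83 and -0.86), and TMEM47 lost its call with quantile normalization and without ORMES23 B, ORMES23 C, CRES-3 A or CRES-3 B.

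Genes known to escape X inactivation, which females can express from both copies, had a median of 0.30 over 29 members, which was 0.20 without ORMES23 A and 0.17 over means of probe sets. XG was the only one called, 11 lay wholly higher and 1 wholly lower. At an adjusted p under 0.05, whatever the fold, 5 were higher and 0 lower. Besides XG these were the splicing factor gene ZRSR2, which read 6.11, 6.25 and 6.09 against 7.06, 6.79 and 6.75 (0.72), TXLNG (0.92), AP1S2 (0.52) and GEMIN8 (0.74). AP1S2 and GEMIN8 missed that threshold whichever array was left out (adjusted p 0.0659 to 0.147 and 0.0579 to 0.199). TXLNG missed it without CRES-3 B (adjusted p = 0.0531), and ZRSR2 passed throughout. As a mean of its probe sets, AP1S2 stood at 0.59 (adjusted p = 0.0544). The initiation factor gene EIF2S3 stood at 0.47 and the histone demethylase gene KDM5C at 0.30, wholly higher and not passing the test. CD99 stood at -0.80 and overlapped. Over all X-linked genes, 10 were higher and 4 lower at that threshold.

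Of the X inactivation centre, NAP1L2 (0.34), CHIC1 (0.20) and RLIM (-0.10) were measured and none was called; no value is given for XIST. The only measured gene of the Y-linked list, SRY, the testis determining gene, read 5.34, 5.64 and 5.44 in ORMES23 and 6.41, 5.98 and 5.86 in CRES-3, higher in the line labelled female. That probe set averaged 5.26 to 5.67 in the other lines and fibroblasts of both labelled sexes, so it checks no label.

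Another comparison set the other lines labelled female (RiPS2 and RiPS3) against those labelled male (CRES-1 and RiPS1). Its means used no array of CRES-3 or ORMES23. Arrays of CRES-3 and ORMES23 did enter its estimate of the spread, the filter and the choice of probe set, so it was not independent of them. There 94 genes were called (0.905%), 39 higher (0.375%) and 55 lower (0.529%) in the female lines. Of the 57 genes that rose in CRES-3, 11 were called higher there and 1 lower. Of the 56 that fell, 6 were called lower and 0 higher. Sex is again not the only difference, since both female lines are induced lines from adult donors.

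The 11 that rose in both comparisons included MAMU-AG, MAMU-A on its brightest probe set (reversed in both as a mean of its probe sets), ZNF311, ZNF799, CLDN7, TESMIN, LOC712157 and SH3YL1. MAMU-AG differed by 2.95 between the other lines (1.87 as a mean of its probe sets) and CLDN7 by 1.63. LOC712157 averaged 8.87 in RiPS2 and 7.70 in RiPS3 and was under log2 5 in CRES-1 (4.81) and RiPS1 (4.51). ZNF799 averaged 7.80 in CRES-3, 7.21 in RiPS2 and 6.76 in RiPS3, and 4.67, 3.72 and 3.77 in ORMES23, CRES-1 and RiPS1. None of these genes is X-linked, and they lie on autosomes in the assembly used. LOC695105 and UBD were among those lower in both. LOC695105 differed by -1.97, and UBD was under log2 5 in RiPS2 (4.45) and RiPS3 (4.83). CRYGB, a lens crystallin gene, was the one called in opposite directions, at 1.48 in CRES-3 and -1.22 between the other lines. The X-linked genes had a median of -0.08 in the comparison of the other lines, with 0 called higher and 6 lower. The 29 escape genes had a median of -0.06 there, with 0 called in either direction.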

How the data were processed

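The authors deposited log2 expression values made by robust multi-array average (RMA), per the submitters' processing notes; the RMA version is not given in the sources used here. Probe sets were named from the platform annotation, and chromosomes were taken by gene ID from the RefSeq table of assembly T2T-MMU8v2.0. The values were used as deposited, without further scaling.

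Probe sets with 1 symbol at log2 5 or more on at least 3 of the 6 arrays entered a limma fit (limma 3.58.1, R 4.3.3) with 1 mean for each of 7 lines or cell types over all 21 arrays (14 residual degrees of freedom). P-values were adjusted by Benjamini-Hochberg over all 16822 probe sets, and a call needed an adjusted p under 0.05 and a difference of at least 1 on the log2 scale. A gene was read from its brightest probe set over the 6 arrays, and levels were not compared between genes. The fit was tested on simulated data.

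Named genes are the 20 largest rises and 20 largest falls among called genes that do not overlap, called members of 28 gene lists, up to 4 further members of each list by smallest p, the reprogramming factors, called X-linked genes, the 5 smallest p-values and called genes near MHC class I. Other genes shown (such as endoderm, collagen and BMP genes) were chosen after their values were seen. The comparison and the lists were chosen with earlier results of these data known. Alternatives were other filters, scalings, probe set rules, fits, arrays left out and the replicate letter as a block. The number of arrays limits the precision.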

Additional observations from a re-analysis of the deposited data

How the results depend on the processing

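The counts of called genes stayed within 1.5 times of 113 under other filters, median centring, quantile normalization, means of probe sets, a trended robust prior, the fit without the fibroblasts and the fit on the 6 arrays alone, with 92 to 140 calls. Array weights gave 323 calls, 122 higher and 201 lower in CRES-3, and 150 in place of 94 between the other lines; the estimation of the weights stopped before it converged (5.07 for ORMES23 B and 0.366 for ORMES23 A), so these counts are uncertain. Leaving out 1 array at a time gave 53 to 182 calls (31 to 92 higher, 21 to 90 lower), and 78 to 114 between the other lines. With the letter as a replicate block there were 109 calls (61 higher and 48 lower), of which 103 were among the 113, and 97 between the other lines; EOMES, FAM222A, GATA3, KLHL14, PLAGL1 and UBD were among those it no longer called. Deviations of same-lettered arrays correlated at -0.144, -0.129 and -0.269, so the letters were not taken to pair samples. MAMU-A turned to -1.29 between CRES-3 and ORMES23 and to -0.21 between the other lines as a mean of its probe sets. All settings together left 32 of the 113 genes called in each. Among values of named genes under the alternatives, 2518 stayed the same, 158 lost and 53 gained a call, 3 moved and 1 reversed. The same means the same side of the threshold and either the same sign or, in uncalled values, a shift under 1 SE. Moved values changed sign by a larger shift without a call. Genes with a line under log2 5 lie near background, where differences are compressed.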

Other observations

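Chromosome 19 was looked at after the data had been seen. Its 731 measured genes had a median difference of 0.11 (log2) between CRES-3 and ORMES23, and medians of the other autosomes and X lay between -0.01 and 0.05. On it, 9 genes were called higher and 1 lower, and the arrays did not overlap in 27.4% of genes as higher and 6.57% as lower in CRES-3. Over all genes, 0.549% were called higher and 0.539% lower, and the arrays did not overlap in 17.5% as higher and 12.3% as lower. The chromosome 19 median was 0.09 to 0.13 when single arrays were left out. Against the mean of the other 4 lines, the chromosome 19 genes had medians of -0.04, -0.05 and -0.01 on the ORMES23 arrays and 0.07, 0.13 and 0.05 on the CRES-3 arrays. CRES-1, RiPS1, RiPS2 and RiPS3 minus ORMES23 had medians of -0.00, 0.02, 0.04 and 0.03. ZNF799 and BST2 are among its called genes. These are values without a test.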
